A study of Homo sapiens with 4 samples.

Results

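Transcript levels of 10 genes that set the shape of the mitochondrial network were followed in a uveal melanoma cell line given an uncoupler, a second compound, or the pair. The genes were chosen by name for their known roles in mitochondrial fusion (MFN1, MFN2, OPA1) and fission (DNM1L, FIS1, MFF, MIEF1, MIEF2, MTFP1, MTFR1), and all 10 were found among the 58735 genes of the deposited tables. Earlier results of these data were known when the choice was made. The cells were OMM2.3, an established line from a metastasis of uveal melanoma, kept in medium with 10% fetal bovine serum. The 4 groups were control, CCCP, DHA, and CCCP with DHA, with 1 library in each group. CCCP is an ionophore that carries protons across the inner mitochondrial membrane and collapses its potential. The labels give DHA only as an abbreviation, and doses, exposure times and any vehicle were not given in the sources used here. There are no replicates, so a ratio between libraries is given with a 95% interval that covers counting error only (called its counting interval) and has no test.

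Mitochondria fuse and divide continuously. The mitofusins MFN1 and MFN2, GTPases of the outer membrane, join outer membranes, and OPA1, a dynamin-like GTPase of the intermembrane space, joins inner membranes and keeps cristae closed. Division needs the cytosolic GTPase DRP1, encoded by DNM1L, which adaptors of the outer membrane (MFF, MIEF1, MIEF2 and FIS1) recruit. Loss of membrane potential is known to activate the protease OMA1, which cleaves OPA1, and to let PINK1 and parkin tag mitofusins for degradation, so much of the known control is on proteins, which were not measured here.

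Reads recovered per library numbered from 16900411 to 18937286, and mitochondrially encoded genes held from 3.85 to 5.18% of them, with the lowest share in the combination. Of 12 melanocyte lineage markers, 6 reached 1 FPKM (fragments scaled for exon length and library size) in some library, while TYR and PAX3 were at 0 in all 4. The 12 summed to 81.9 FPKM in control, 88.0 and 74.5 with CCCP and DHA alone and 72.5 with the combination, and 5, 3 and 2 of the 6 were above control in turn. All 6 leukocyte and all 5 endothelial markers stayed under 1 FPKM. The 9 fibroblast markers summed to 73.0 FPKM in control, 49.8 and 47.4 with CCCP and DHA alone and 31.4 with the combination, with LUM at 0 throughout, and the 7 epithelial markers to 378, 301, 348 and 270 FPKM, with KRT5 at 0 throughout. The part of these markers in the results that follow was not tested. In bulk RNA, fewer cells of a kind and less RNA per cell cannot be told apart.

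Levels of the 10 genes in control cells are compared here per kilobase of exon. FIS1 (23.6 FPKM) and MFN2 (21.4 FPKM) led, and their counting intervals overlapped. OPA1 (14.8 FPKM) and MFF (12.7 FPKM) followed, apart from each other, and then MFN1 (10.6 FPKM) and DNM1L (10.1 FPKM), whose intervals overlapped. MIEF2 (6.61 FPKM), MTFR1 (6.25 FPKM) and MIEF1 (6.23 FPKM) could not be ordered beyond counting error. MTFP1 lay far below at 0.818 FPKM, from 27 reads, and under 1 FPKM in every library, so it alone of the 10 missed the filter, which asked for 1 FPKM or more in any library. The 9 others had from 454 to 2988 reads in each library.

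**Figure D1:**
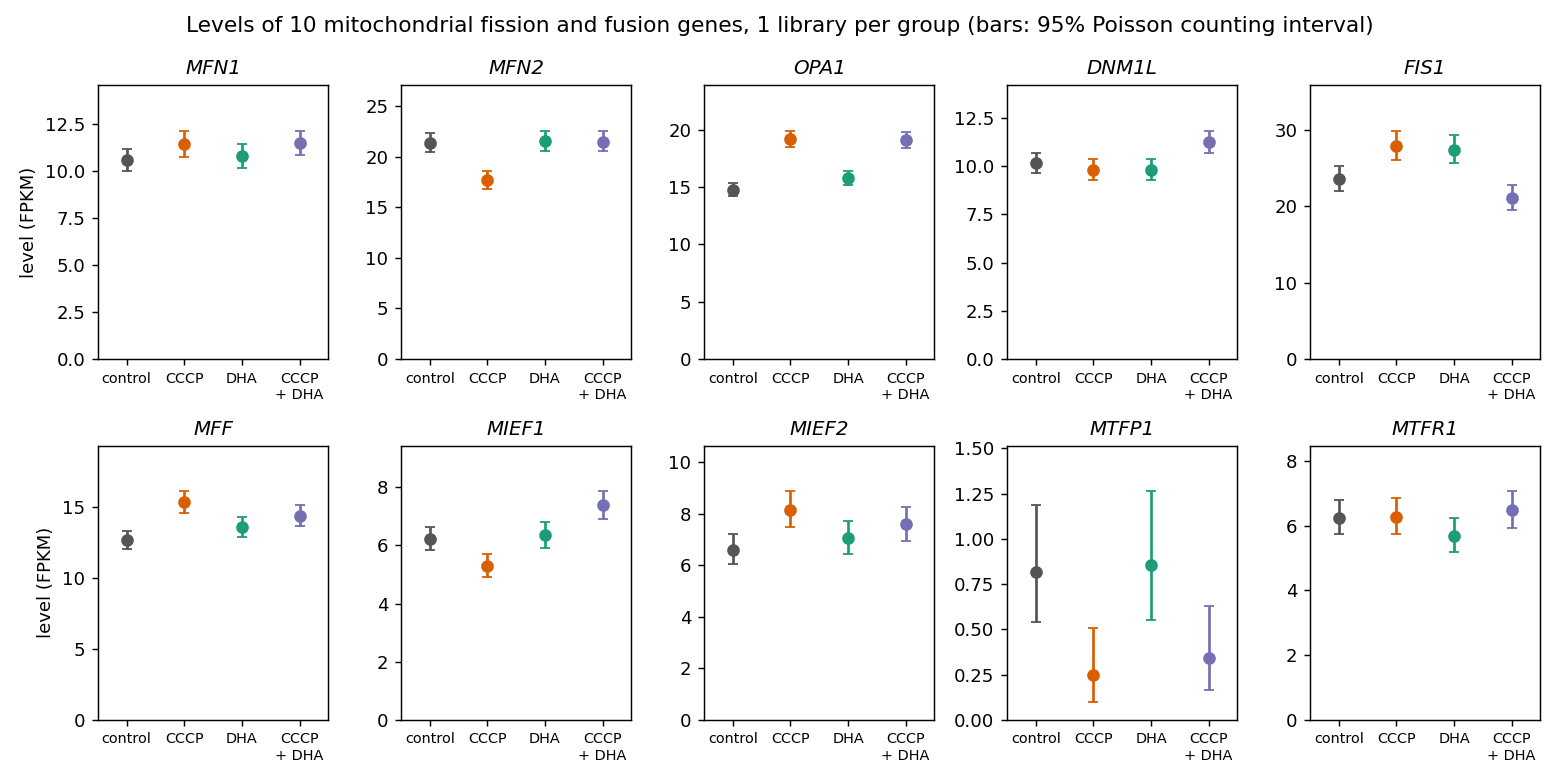
Level in FPKM (y axis, from 0) of each of the 10 genes in the 4 libraries (x axis), with 95% Poisson counting intervals as bars and 1 library per group. OPA1 stood at about the same level in the 2 libraries with CCCP and above the other 2, FIS1 was lowest in the combination, MFN2 and MIEF1 were lowest with CCCP alone, and MTFP1 stayed under 1 FPKM.

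Apart from MTFP1, which passed 1.5-fold but not 2-fold and is described with its few reads further on, none of the genes reached the fold rules. Of the 9 genes past the filter, 0 differed by at least 1.5-fold from control with either compound or the pair, on the log2(FPKM + 0.5) scale. Over all 13678 genes past the filter the share at least 1.5-fold away from control was 14.3% with CCCP, 8.58% with DHA and 23.8% with both. Among the 10896 protein-coding genes, which have fewer members with few reads, these shares were 7.25, 2.05 and 18.2%. With 9 genes, a count of 0 is near the background for each single compound, and for the combination it is not read as particular to these genes. At 2-fold the background over all genes was 5.53, 3.87 and 9.96%, again with 0 of 9. For the combination against CCCP and against DHA the count was also 0 of 9, against 21.3 and 17.0% of all genes at 1.5-fold and 8.4 and 6.9% at 2-fold.

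The 3 comparisons with control share the control library. With the combination the median absolute log2 ratio to control of the 9 genes was 0.16, against 0.30 over all genes tested and 0.27 over protein-coding genes. With CCCP alone it was 0.24, against 0.22 and 0.19, and with DHA alone 0.09, against 0.14 and 0.12. The signed medians were 0.11 with CCCP, 0.03 with DHA and 0.14 with the combination, with 6, 7 and 8 of the 9 genes above control, while the medians over all genes were 0.00, 0.00 and 0.01. Under scaling to equal totals of FPKM, which moved the median of all genes to -0.10 with CCCP and -0.09 with DHA, the signed medians of the 9 genes were 0.00 (4 above control), -0.07 (1 above) and 0.11 (7 above), so no direction can be given for the family with either single compound. The widest span over the 4 libraries among the 9 genes was 1.39-fold, in MIEF1, followed by 1.32-fold in FIS1 and 1.3-fold in OPA1, and the narrowest was 1.09-fold, in MFN1.

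**Figure D2:**
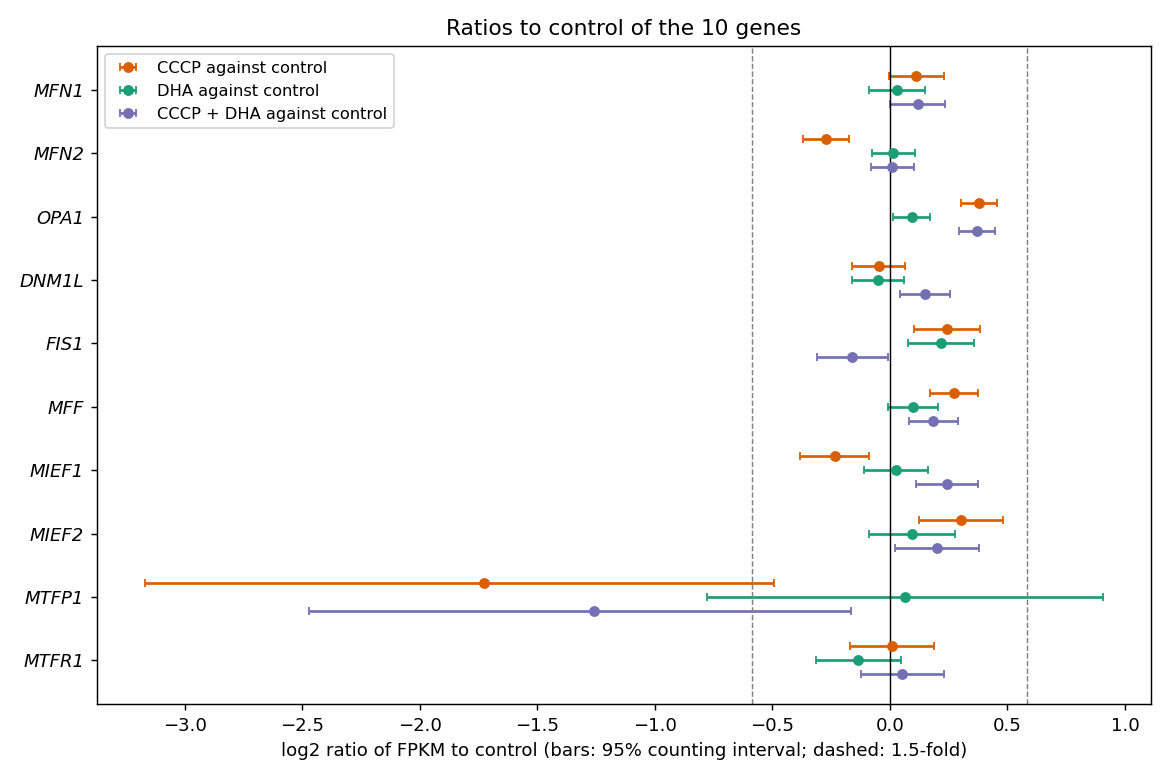
Log2 ratio of FPKM to control (x axis) for each of the 10 genes (y axis) with CCCP, DHA and both, with 95% counting intervals and dashed lines at 1.5-fold. The 9 genes past the filter lie inside the dashed lines in all 3 comparisons, OPA1 reaches 1.3-fold with CCCP and 1.29-fold with both, and MTFP1 has intervals several times wider than the rest.

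OPA1 was the fusion gene with the largest ratio under the deposited scaling. At equal totals of FPKM its log2 ratio with CCCP was 0.26, and MFN2 led with -0.38. OPA1 lies on chr3:193593144-193697823 of GRCh38, on the plus strand (ENSG00000198836). Its level was 14.8 FPKM in control, 19.2 after CCCP, 15.8 after DHA and 19.1 after the pair. The 2 libraries with CCCP stood together and above the 2 without it, and their counting intervals did not overlap those of the others. The ratio was 1.3-fold (1.23 to 1.37) for CCCP against control and 1.21-fold (1.15 to 1.28) for the combination against DHA, while DHA against control gave 1.07-fold (1.01 to 1.13), a value that went to a log2 ratio of -0.01 under equal totals. CCCP added to either background thus went with a higher OPA1 level, whereas the combination and CCCP alone differed by less than counting error (0.995-fold, 0.945 to 1.05).

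Of the genes that share ground with OPA1, the antisense gene OPA1-AS1 overlaps 208 bases of OPA1 exon, 2.3% of its exon length. OPA1-AS1 had 2 reads in control, 12 after CCCP, 4 after DHA and 15 after the pair, beside 2607, 2908, 2460 and 2988 reads of OPA1. The library kit does not mark strand, and reads of the 2 genes cannot be told apart where they overlap. Their part in the level of OPA1 was not tested.

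The 250 bases before the RefSeq start of OPA1 (GRCh38.p14, chr3:193592958-193593207, plus strand) are shown because OPA1 was higher in both libraries with CCCP, and those of MTFP1 (chr22:30425518-30425767, plus strand) because it was lower in both. Both were chosen after their values were seen. The plan had been to show promoters only of genes that pass the 1.5-fold rule, which OPA1 did not. Capitals mark the palindrome CGCATGCG, the core recognised by nuclear respiratory factor NRF1, a regulator of nuclear genes for mitochondria.
OPA1: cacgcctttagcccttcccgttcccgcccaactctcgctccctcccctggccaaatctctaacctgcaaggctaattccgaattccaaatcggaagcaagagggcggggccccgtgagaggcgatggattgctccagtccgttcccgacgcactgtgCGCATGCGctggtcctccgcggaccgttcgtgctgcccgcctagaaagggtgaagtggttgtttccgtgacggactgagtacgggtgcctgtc
MTFP1: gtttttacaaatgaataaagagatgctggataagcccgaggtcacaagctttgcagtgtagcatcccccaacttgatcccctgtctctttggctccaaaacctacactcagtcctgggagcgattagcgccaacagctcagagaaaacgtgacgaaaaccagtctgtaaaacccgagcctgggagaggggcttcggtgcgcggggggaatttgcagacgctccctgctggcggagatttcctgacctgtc

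The palindrome begins 93 bases before the start of OPA1. It was present in 1 of the 12 windows of the 9 genes with a RefSeq window. Among 35116 windows of the same length its share was 1.73%. The motif was shortened after a match was seen, so this share is no test of the match in OPA1. Searched on both strands, GGGCGG was in 8 of the 12 windows, of 7 genes, against 42.6% of all windows. CCAAT was in 7 of the 12, of 5 genes, against 32% of all windows. MFF and MIEF2 have more than 1 window each. CACGTG and TGATGCAA, the latter part of sites for ATF4 with C/EBP proteins, were in 0 of the 12, against 6.34 and 0.772% of all windows. The window of MTFP1 held none of these 5 motifs. No motif searched contains another. A match describes the letters of the window and is no evidence of binding.

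The mitofusins went apart. MFN2 (chr1:11980181-12013514, GRCh38) had 21.4 FPKM in control, 17.7 after CCCP, 21.6 after DHA and 21.5 after the pair, so that the library with CCCP alone was low and the other 3 did not differ beyond counting error. MFN2 was 1.21-fold (1.13 to 1.29) lower with CCCP than in control. MFN1 had 10.6, 11.4, 10.8 and 11.5 FPKM in the same order, with intervals that all overlapped, and the ratio of the combination to control was 1.09-fold (1.00 to 1.18). The ratio of MFN2 to MFN1 within a library, which no scaling between libraries can alter, was 2.02 (1.88 to 2.17) in control, 1.55 (1.43 to 1.67) after CCCP, 2.0 (1.85 to 2.16) after DHA and 1.87 (1.74 to 2.02) after the pair. The ratio of OPA1 to MFN2 was 0.693 (0.653 to 0.734), 1.09 (1.02 to 1.16), 0.731 (0.688 to 0.777) and 0.889 (0.839 to 0.943) in the same order. CCCP alone was thus the only library of the 4 in which OPA1 stood above MFN2 per kilobase of exon.

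DNM1L, the fission GTPase, did not differ from control beyond counting error with either single compound, and was higher with the pair. It had 10.1 FPKM in control, 9.81 after CCCP, 9.79 after DHA and 11.2 after the pair. The combination was 1.11-fold (1.03 to 1.19) higher than control, and the ratios of the single compounds to control had intervals that included 1. Against CCCP alone the combination was 1.15-fold (1.06 to 1.24) higher, and against DHA alone 1.15-fold (1.06 to 1.24) higher.

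The adaptors that recruit DRP1 followed 3 different patterns. MFF, the main adaptor in many cell types, had 12.7 FPKM in control, 15.3 after CCCP, 13.6 after DHA and 14.4 after the pair. It was 1.21-fold (1.13 to 1.3) above control with CCCP and 1.14-fold (1.06 to 1.22) with both. MIEF2 (MiD49), which also recruits DRP1, had 6.61, 8.16, 7.06 and 7.59 FPKM and ratios of 1.23-fold (1.09 to 1.39) with CCCP and 1.15-fold (1.01 to 1.3) with both. MFF and MIEF2 were thus highest with CCCP alone and next highest with the combination, but the place of the combination was within counting error. In both genes its ratios to CCCP alone and to DHA alone had intervals that included 1.

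MIEF1 (MiD51), the paralogue of MIEF2, went the other way with CCCP alone. It lies on chr22:39499432-39518132 (GRCh38) and had 6.23 FPKM in control, 5.29 after CCCP, 6.35 after DHA and 7.38 after the pair, lowest with CCCP and highest with the combination. The ratio to control was 1.18-fold (1.06 to 1.3) lower with CCCP and 1.18-fold (1.08 to 1.3) higher with both, and the combination was 1.39-fold (1.26 to 1.54) above CCCP alone. The ratio of MIEF2 to MIEF1 within a library was 1.06 (0.951 to 1.18) in control, 1.54 (1.37 to 1.73) after CCCP, 1.11 (0.993 to 1.25) after DHA and 1.03 (0.923 to 1.15) after the pair. CCCP alone therefore held the only ratio whose interval lay apart from the other 3.

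FIS1, a tail-anchored outer membrane protein with a part in fission and in mitochondrial quality control, was higher with each compound and lower with the pair. It lies on chr7:101239458-101252316 on the minus strand (GRCh38). Its level was 23.6 FPKM in control, 27.9 after CCCP, 27.4 after DHA and 21.1 after the pair. FIS1 exceeded control by 1.18-fold (1.07 to 1.3) with CCCP and by 1.16-fold (1.05 to 1.28) with DHA, and the combination was 1.12-fold (1.01 to 1.24) below control. The combination was 1.32-fold (1.19 to 1.47) lower than CCCP alone and 1.3-fold (1.17 to 1.44) lower than DHA alone. These intervals hold for the deposited scaling. At equal totals of FPKM the log2 ratios to control shrank to 0.13 with CCCP and 0.11 with DHA and were -0.19 with both, and no intervals were computed there.

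As a share of the summed FPKM of the 4 adaptors, FIS1 held 48.1% in control, 49.3% after CCCP, 50.4% after DHA and 41.9% after the pair. MFF held 25.8, 27.0, 24.9 and 28.5%, MIEF1 12.7, 9.33, 11.7 and 14.6%, and MIEF2 13.5, 14.4, 13.0 and 15.0% in the same order. The adaptor pool in the combination thus held less FIS1 and more of the other 3, with a sum of 50.5 FPKM against 49.1 in control. The 3 fusion genes summed to 46.7 FPKM in control and 48.3, 48.1 and 52.1 FPKM with CCCP, DHA and both, and their sum divided by that of DNM1L and the adaptors was 0.789, 0.727, 0.750 and 0.844.

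MTFP1, an inner membrane protein that promotes fission, and MTFR1, which takes part in fission and antioxidant defence, make up the remaining fission genes. MTFP1 had 27 reads in control, 7 after CCCP, 25 after DHA and 10 after the pair (0.818, 0.247, 0.855 and 0.342 FPKM). The libraries with CCCP were low and the 2 without it high, and the FPKM ratio to control was 3.31-fold (1.41 to 9.01) lower with CCCP and 2.39-fold (1.12 to 5.54) lower with both. These intervals are wide because of the few reads. The annotated readthrough gene AC004832.3, on the same strand, shares 890 bases of exon with MTFP1, 52.5% of the exon length of MTFP1. AC004832.3 had 0 reads in every library. How reads in shared bases were counted was not given in the sources used here. The part of this overlap in the low level of MTFP1 was not tested. MTFR1 had 6.25, 6.28, 5.69 and 6.48 FPKM, and each of its ratios to control had an interval that included 1.

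Counting intervals excluded 1 for 6 of the 9 genes with CCCP (4 higher, 2 lower), 2 with DHA (both higher) and 7 with the combination (6 higher, 1 lower). At these depths the same held for 51.6% of all genes with CCCP (25.8% higher, 25.8% lower), 35.3% with DHA (18.1% higher, 17.2% lower) and 60.2% with both (30.8% higher, 29.3% lower), and for 58.2, 39.8 and 68.4% of protein-coding genes. By direction, 6 of 9 higher with the combination and 4 of 9 higher with CCCP lie above the shares of all genes, differences that were not tested. An interval that excludes 1 says only that 2 libraries differed beyond counting error.

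As 2 libraries held each compound, an additive fit was possible with 1 residual degree of freedom. That residual is the departure from additivity. The SEs and p-values of the fit therefore rest on such departures, in the gene and over other genes, and measure no spread between replicates. Of the 9 genes, 0 passed an adjusted p of 0.05 for either compound in limma-trend with Benjamini-Hochberg adjustment, and 0 had an unadjusted p under 0.05. Over all genes the fit called 0.095% for CCCP and 0.102% for DHA. An unadjusted p under 0.05 was found for 1979 and 1660 of the 13678 genes. The smallest value for CCCP was that of OPA1, with a log2 effect of 0.32 (SE 0.14), an unadjusted p of 0.0584 and an adjusted p of 0.365. For DHA it was MIEF1, with a log2 effect of 0.23 (SE 0.15) and an adjusted p of 0.584. In limma's voom on recovered reads 0 of the 9 passed as well, and 1, OPA1, had an unadjusted p under 0.05 for CCCP (0.0365). The same held for 2385 of the 13678 genes. In limma-trend OPA1 also had one under 0.05 at a mean of 5 FPKM (0.0478), among protein-coding genes (0.0478) and without a filter (0.0368), where MTFP1 joined it (0.0417). In the same order, 1250 of 6760, 1902 of 10896 and 2211 of 28196 genes had such a value for CCCP. These values are therefore not read as particular to OPA1 or MTFP1, and all settings use the same 4 libraries. SEs of the 9 genes ran from 0.13 to 0.19 on the log2 scale.

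Departure from additivity was taken as the log2 ratio for CCCP with DHA minus that without it, a value with no test. Its counting interval excluded 0 for 5 of the 9 genes, against 44.9% of all genes and 51.4% of protein-coding genes, so the count is near the background. FIS1 had a CCCP log2 ratio of 0.24 without DHA and -0.37 with it, a difference of -0.61. MIEF1 had -0.22 and 0.20, a difference of 0.42. For both genes the 2 ratios had intervals on opposite sides of 1, as had 7.74% of all genes, and for FIS1 the same held for DHA without and with CCCP (1 of 9, against 4.17% of all genes). MFN2 (0.26) and DNM1L (0.23) also had positive differences and MFF a negative one (-0.18), and these complete the 5. OPA1 (-0.10) and MFN1 (-0.02) lay near the additive line. The median absolute difference was 0.19 for the 9 genes, 0.26 over all genes tested and 0.22 over protein-coding genes. Scaling to equal totals shifted each difference upward, which left FIS1 at -0.43 and MIEF1 at 0.59, took MFN2 to 0.44 and DNM1L to 0.41, brought MFF to -0.01 and turned OPA1 to 0.08 and MFN1 to 0.15.

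**Figure D3:**
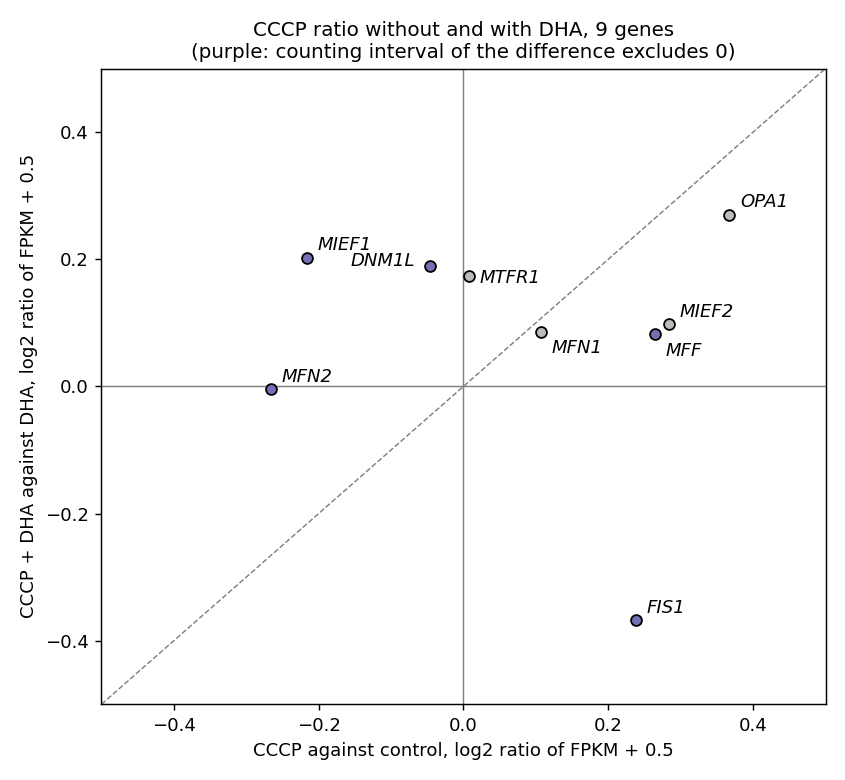
Log2 ratio of FPKM + 0.5 for CCCP against control (x axis) and for the combination against DHA (y axis), 1 point for each of the 9 genes past the filter. The dashed line marks equal values, purple points have a counting interval of the difference that excludes 0, and FIS1 and MIEF1 lie in the quadrants of opposite sign.

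By Euclidean distance over the 3 log2 ratios to control, the protein-coding genes most like MIEF1 among 6401 with a mean of at least 5 FPKM were SLC31A1 (0.034), NCDN (0.037), TMEM87B (0.041), FAM83G (0.042) and KPNB1 (0.044). Those most like FIS1 were UTRN (0.046), VEGFC (0.051), KLF5 (0.053), FLOT1 (0.054) and HAUS6 (0.056). The 3 ratios share the control library, and the likeness describes these 4 libraries only.

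Beyond the 10 genes, 6 lists of related genes held 63 tested genes of 67 found. Of these 63, 2 were at least 1.5-fold higher and 1 lower with CCCP, 0 and 0 with DHA, and 3 and 3 with both. In either direction that was 4.76, 0 and 9.52% of them, against 14.3, 8.58 and 23.8% of all genes. At 2-fold the shares of all genes were 5.53, 3.87 and 9.96%. The counts by list that follow stand beside these shares, come from short lists and were not tested. Their median absolute log2 ratios were 0.18, 0.12 and 0.22, beside the 0.22, 0.14 and 0.30 of all genes.

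Genes that process or hold OPA1 stayed within 1.5-fold in all 3 comparisons (0 of 10). OMA1, the stress-activated protease of OPA1, had 2.25 FPKM in control, 2.27 after CCCP, 1.7 after DHA and 2.81 after the pair. YME1L1, the protease that cleaves OPA1 constitutively, had 22.2, 22.6, 23.0 and 28.7 FPKM and was 1.29-fold (1.23 to 1.36) above control with both. PHB2, a prohibitin that scaffolds the inner membrane, had 71.3, 76.7, 94.3 and 94.1 FPKM, higher in the 2 libraries with DHA.

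Among 16 other fission and fusion factors, 2 were at least 2-fold above control with the combination. SPIRE1, an actin nucleator whose mitochondrial form assists fission, had 5.56, 6.38, 8.05 and 14.6 FPKM and was 2.63-fold (2.4 to 2.87) higher with both. PLD6 (MitoPLD), an outer membrane phospholipase that acts with mitofusins, had 1.3, 1.24, 1.07 and 3.28 FPKM and was 2.52-fold (1.87 to 3.42) higher. MSTO1, a cytosolic factor linked to fusion, had 2.6, 1.27, 2.01 and 2.11 FPKM and was 2.05-fold (1.6 to 2.66) lower with CCCP in FPKM, 1 of 16 past 1.5-fold there. MSTO1 has a closely related pseudogene, so its reads may be split.

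Of 14 tested genes for kinases, phosphatases and anchors that act on DRP1, 3 were at least 2-fold lower with the combination. These were the mitotic genes CDK1, CCNB1 and AURKA, whose kinases promote DRP1 activity at cell division, and CDK1 was 2.33-fold (2.17 to 2.5) lower, CCNB1 2.62-fold (2.47 to 2.8) and AURKA 2.5-fold (2.28 to 2.75). CDK1 had 37.4, 42.1, 34.0 and 16.1 FPKM in control, CCCP, DHA and both, with the combination alone low. PIM1, whose kinase lowers DRP1 at mitochondria, was 1.55-fold (1.38 to 1.74) higher with CCCP. AKAP1, which anchors protein kinase A to the outer membrane, had 9.83, 9.51, 11.7 and 15.2 FPKM and was the 1 gene of the list at least 1.5-fold higher with both.

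Enzymes that modify mitofusins or DRP1 had 0 of 6 past 1.5-fold on the log2(FPKM + 0.5) scale, with PINK1, the kinase that starts mitophagy, at 8.39 FPKM in control and 12.7 with CCCP, 6.76 with DHA and 7.62 with both. MUL1, a ligase of the outer membrane that targets MFN2, had 10.9, 7.24, 10.4 and 10.2 FPKM, lowest with CCCP alone as MFN2 was. USP30, a deubiquitinase of the outer membrane, had 3.45, 4.57, 2.92 and 3.07 FPKM.

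In the MICOS list, genes of the complex that shapes crista junctions, 1 of 10 was past 1.5-fold, APOOL with CCCP. APOOL had 3.08, 4.92, 3.36 and 4.82 FPKM, higher in the 2 libraries with CCCP as OPA1 was. CHCHD3, a core subunit, had 14.2, 15.0, 18.0 and 19.5 FPKM, higher in the 2 with DHA. Of 7 tested genes of mitochondrial transport 0 were past 1.5-fold, and RHOT1 (MIRO1), the adaptor that links mitochondria to motors, had 5.79, 8.53, 6.69 and 8.12 FPKM, while its paralogue RHOT2 had 10.4, 9.32, 9.58 and 8.3 FPKM.

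A pair of yardsticks places these values. The 16 general mitochondrial genes had median log2 ratios of 0.02, 0.08 and 0.12 with CCCP, DHA and both, and 3 were at least 1.5-fold higher with the combination, the chaperones HSPA9 (2.45-fold, 2.37 to 2.53) and HSPD1 (1.58-fold, 1.55 to 1.62) and the import gene TIMM44 (1.99-fold, 1.77 to 2.23). With CCCP 1 of the 16 was at least 1.5-fold lower, the import channel gene TOMM40 (1.55-fold, 1.45 to 1.66). The 7 genes of the integrated stress response had medians of 0.39, 1.26 and 3.17, and 7 of 7 were at least 2-fold higher with DHA and with both. This list was chosen with its behaviour in these libraries known and serves only for scale. Against it, the signed medians of the 9 fission and fusion genes were 0.11, 0.03 and 0.14.

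**Figure D4:**
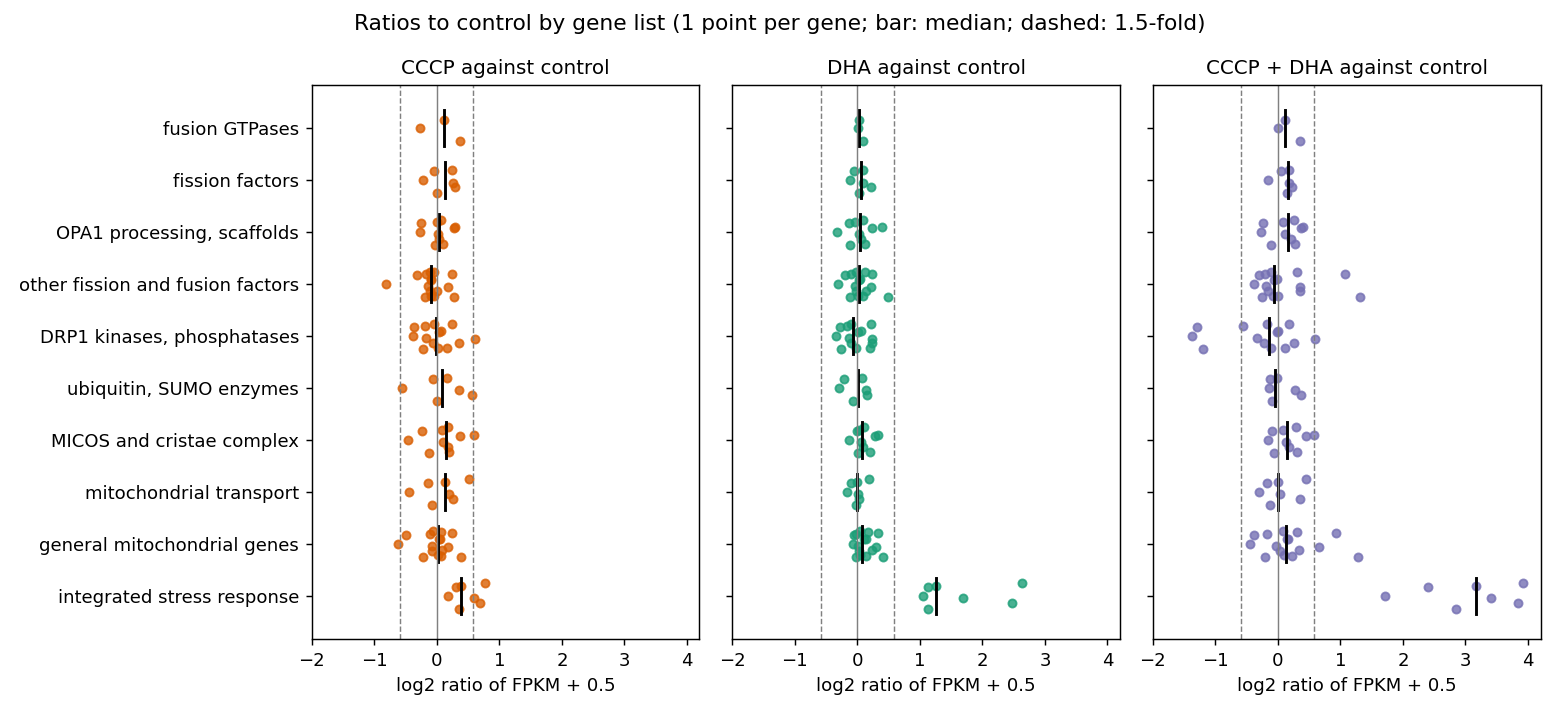
Log2 ratio of FPKM + 0.5 to control (x axes) by gene list (y axis) in the 3 comparisons, 1 point per gene past the filter, with the median as a bar and dashed lines at 1.5-fold. The fusion and fission lists lie inside the dashed lines in all 3 panels, while 3 genes of the DRP1 list lie below -1 and 7 stress genes above 1 with the combination.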

How the data were processed

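RNA of 4 libraries (1 ug of total RNA each, Illumina TruSeq RNA kit, per the labels' protocols) was analysed. The authors deposited FPKM of 58735 genes in each library, per the file headers; aligner, counting tool and build were not given in the sources used here. Identifiers of all 58735 genes matched GENCODE 29 (GRCh38), the source of coordinates, gene types and exon lengths. FPKM times summed exon length gave whole reads for 100% of values above 0 (tolerance 0.01 reads), and the implied library sizes equal median-of-ratios factors, so values were used as deposited.

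Ratios used log2(FPKM + 0.5) over the 13678 genes that reached 1 FPKM in any library. Fold values with intervals are plain FPKM ratios with exact conditional binomial (Clopper-Pearson) 95% intervals; levels have exact Poisson intervals, and differences of ratios normal ones. These cover counting error only. The additive limma-trend fit (CCCP and DHA terms, 1 residual degree of freedom) was tested on simulated data. The members and gene lists were chosen with earlier results of these data known. From each list up to 4 genes of largest ratio whose mean reached 1 FPKM qualified for naming; AKAP1 and the choice among those that qualified were picked after values were seen. MARCHF5 was not matched under its name. Promoters are RefSeq's (GRCh38.p14), found for 9 of 10 genes; the motif for NRF1 was shortened from 10 to 8 letters after a match was seen. Tools were limma 3.58.1 in R 4.3.3, and scipy 1.17.1, pandas 2.3.3, numpy 2.4.6 and matplotlib 3.10.9 in Python 3.11.15.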

Additional observations from a re-analysis of the deposited data

Results flagged for a closer look

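For 2 genes the ratio for a compound lay on opposite sides of 1 without and with the other compound. Each counting interval excluded 1 under the deposited scaling. For CCCP this held for 2 of the 9 genes and 7.74% of all genes, and for DHA for 1 of the 9 and 4.17% of all genes. FIS1 was higher with CCCP against control and lower with the combination against DHA, and likewise higher with DHA against control and lower with the combination against CCCP, a difference of -0.61 on the log2 scale. MIEF1 was lower with CCCP against control and higher with the combination against DHA, a difference of 0.42. With 1 library in each group these differences were not tested. The combination library is the only one that holds the pair of compounds, and it also had the lowest share of mitochondrially encoded reads (3.85%). The sums of fibroblast (31.4 FPKM), epithelial (270 FPKM) and melanocyte lineage (72.5 FPKM) markers were lowest in it too. The part of any of these in the result was not tested.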

How the results depend on the processing

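Tried were other pseudocounts (0.1, 1), other filters (none, or a mean of 5 FPKM), other scalings (median of ratios, equal FPKM totals), protein-coding genes alone, limma without trend, and voom on recovered reads. The deposited values already carry median-of-ratios factors, so that scaling could change little and is no separate check. Without a filter MTFP1 entered, which made the count of genes at least 1.5-fold away 1 of 10 with CCCP and with the combination against control, and 1 for the combination against DHA. No other alternative gave a fission or fusion gene past 1.5-fold, and no gene of the family passed an adjusted p of 0.05 under any, with lowest adjusted p from 0.246 to 0.630 for CCCP and from 0.510 to 0.765 for DHA. Scaling to equal totals reversed OPA1 with DHA to -0.0075 and the additive DHA effect of MFF to -0.0047. It lowered log2 ratios for CCCP to 0.16 in MFF, 0.18 in MIEF2 and 0.13 in FIS1, and for DHA to 0.11 in FIS1, and turned MFN2 (-0.08), MFN1 (-0.07), MIEF1 (-0.07), MIEF2 (-0.0050) and MFF (-0.0012) with DHA, whose intervals had included 1. The cause was not tested.

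The number of genes called over the whole table varied far more. For CCCP, 13 genes were called, and 21 and 24 with pseudocounts of 0.1 and 1, 89 at a mean of at least 5 FPKM, 508 at equal totals, 235 among protein-coding genes and 685 with voom. For DHA, 14 were called, and 34, 404, 63 and 533 at a mean of at least 5 FPKM, equal totals, protein-coding genes and voom. It was 0 for each compound without a filter and in limma without trend, where 2211 and 1568, and 1496 and 1126, genes had an unadjusted p under 0.05. Genes at least 1.5-fold from control numbered 1956, 1174 and 3259 with CCCP, DHA and both, but 504, 225 and 1385 at a mean of at least 5 FPKM, 790, 223 and 1978 among protein-coding genes, and 3431, 2387 and 4908 without a filter. No paired analysis was possible because each group has 1 library. Leaving out a library would leave no residual degree of freedom and was not run. Counting error limits MTFP1 most.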
